A study of Mus musculus with 10 samples.

Results

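FI-Delta cells deprived of IL-3 for 72 h were compared with the same cells growing in IL-3 (0 h) on 3 of the 10 arrays of the series. These are the arrays on which both channels carried RNA of FI-Delta cells, chosen by their titles alone and not by any measured value. They hold 2 replicates, biological ones per the series' design text, because 2 of the 3 arrays are a dye swap of the RNA of replicate 2 and were averaged. FDB1 is a mouse myeloid progenitor line that was grown in Iscove's medium with fetal calf serum and mouse IL-3. FI-Delta is an activated mutant of the beta chain that the receptors for GM-CSF, IL-3 and IL-5 share, and both groups, 0 h and 72 h, carried it. The other line of the series carried FI-Delta with the Y577F exchange (Y577F cells) and was treated in the same way. For the 72 h groups the cells were washed and left without growth factor. No group was kept in IL-3 for 72 h, so loss of the factor, the washes and time in culture cannot be told apart. Whether a line was a clone or a pool is not given in the sources used here.

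Many blood progenitors live and divide only while a cytokine such as IL-3 or GM-CSF holds the beta chain in its active, paired form. The receptor then works through the kinase JAK2, the transcription factor STAT5, and the ERK and PI3 kinase routes. A beta chain that is active without cytokine can replace that signal, and FI-Delta is known in FDB1 cells for allowing survival and myeloid differentiation without factor. Neutrophils on their way to maturity fill first primary (azurophil) granules, with proteases and myeloperoxidase, and later secondary and tertiary granules, with lactoferrin, cathelicidin and collagenase. Mast cells and basophils share many early progenitors with them and store other proteases, such as carboxypeptidase A3.

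The measured quantity is the log2 ratio of 72 h over 0 h RNA within an array, as normalised by the authors, so a value of 1 stands for a 2-fold difference and no absolute level is given. The direction rests on the likely reading of the deposited values as Cy5 over Cy3. Values for single arrays are given in the order replicate 1, replicate 2 with the 72 h RNA in Cy5, and replicate 2 with the 72 h RNA in Cy3, the last turned in sign. A fitted change is given ± its standard error from the limma fit to all 9 hybridisations of the series, and features with a Benjamini-Hochberg adjusted p under 0.05 were counted as called. Of 20243 features, 1051 rose (5.19%) and 601 fell (2.97%), and 91.8% did not pass. Every count of list members below is to be read against these shares. With a replicate block, a term for each RNA extract in place of the dye term, 374 rose and 170 fell. Of these 544, 541 were called in the same direction in the fit with the dye term. Without a dye term and without the block 959 rose and 530 fell. The block changes both terms at once, and why a call was lost with it was not tested. Without the FI-Delta time array of replicate 1 the counts were 624 and 263, and without those of replicate 2 they were 527 and 254. Below, leaving out a replicate of either line means leaving out its time array or arrays only. RNA of that replicate stayed in the fit on the arrays between the lines. Changes of at least 2-fold were called in 97 features that rose and 48 that fell. Across features replicate 1, with its 72 h RNA in Cy5, correlated with the mean of replicate 2 at r = 0.559. By array, r was 0.539 with the replicate 2 array that also had 72 h RNA in Cy5, and 0.351 with the turned array. The dye swap arrays, which hold the same RNA, correlated with each other at only 0.236 after turning. Bulk RNA was measured, so fewer cells of a type and less RNA per cell cannot be told apart.

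**Figure D1:**
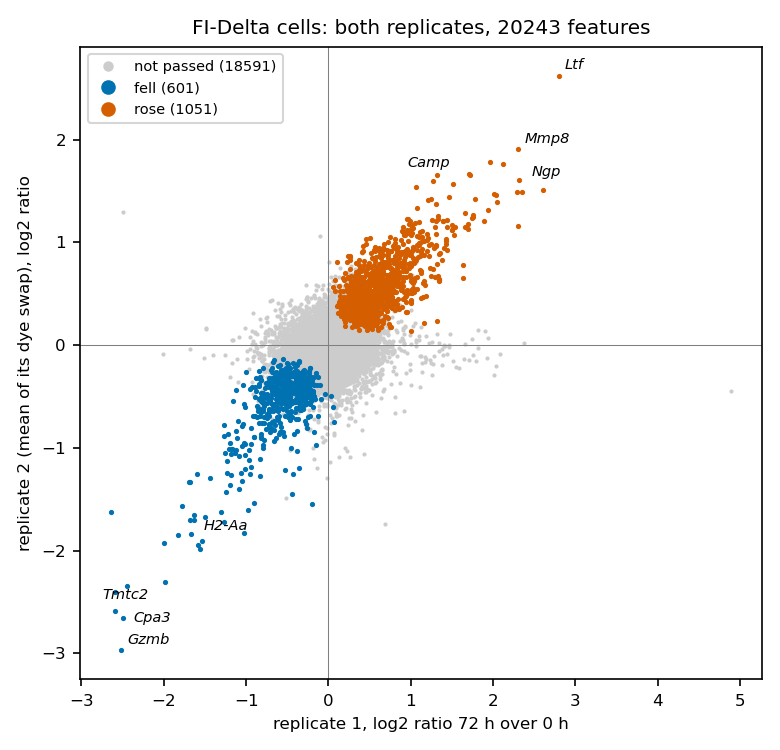
Log2 ratio of 72 h over 0 h on replicate 1 (horizontal axis) against the mean of the 2 dye swap arrays of replicate 2 (vertical axis), a point for each of 20243 features, coloured by the call. The called features lie along the diagonal, with Ltf at its upper end and Gzmb, Cpa3 and Tmtc2 at its lower end, and features high or low on replicate 1 alone lie along the horizontal axis.

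Of the 15 largest rises 9 were in a list of genes of maturing neutrophils, most of them for granule proteins or stefins. This list, like all those below, was written with earlier results of these data known, so such counts are not separate support. Of the 15 largest falls 3 were mast cell and basophil markers, 3 were MHC class II genes and 2 were erythroid and megakaryocyte markers, while 7, among them the largest fall, Tmtc2, were in none of these lists. Each of the 30 genes with the largest changes stayed called under all 20 alternative ways of fitting, with adjusted p of at most 0.0149 in any of them. Having the same sign on all 3 arrays was a condition for choosing these genes and is not separate support. Of the 6 genes taken as markers of the response, the neutrophil genes Ltf, Mmp8, Camp and Ngp rose and the granule protease genes Cpa3 and Gzmb fell.

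**Figure D2:**
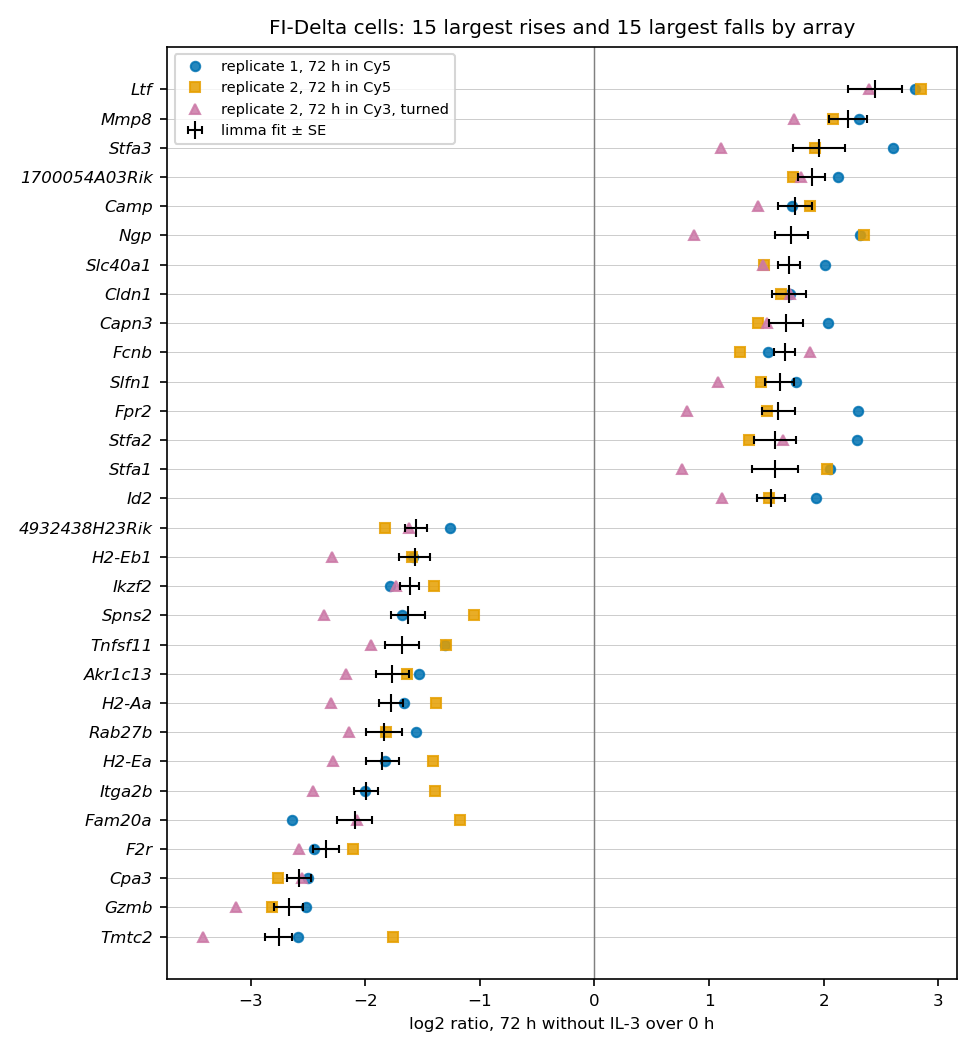
Log2 ratio of 72 h over 0 h (horizontal axis) for the 15 largest rises and 15 largest falls, with a symbol for each of the 3 arrays and a black bar for the fitted change ± SE. No array of any of these genes crosses 0, and the turned array lies lowest for many genes in both directions, for example Ngp, Fpr2, Tmtc2 and Spns2.

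The list of secondary and tertiary granule genes is wider than its name. Beside 16 others, mostly for granule proteins, it holds the surface receptors and integrin chains Csf3r, Cxcr2, Fpr2, Itgam, Itgb2 and Ltb4r1, the stefins Stfa1, Stfa2 and Stfa3 with Wfdc21, and the calprotectin genes S100a8 and S100a9. All 12 of these named members rose, and so did 14 of the 16 others, a split made after the values were seen. Of all 28 measured members 26 rose and 0 fell, against 5.19% of all features that rose, and their median change was 1.23, against -0.0055 for all features. As the list was written with earlier results of these data known, this share is not separate support. The medians over the list were 1.38, 1.23 and 0.867 on the 3 arrays. With the replicate block 22 rose, and between 24 and 26 rose when a hybridisation was left out. Members that did not pass were Cd177 at 0.15, a surface protein of neutrophils, and Cybb at 0.17, the large subunit of the oxidase that also sits in these granules. Ltf, which encodes the iron-binding granule protein lactoferrin, read 2.80, 2.85 and 2.40 on the 3 arrays. The arrays of Ltf lay close together, and the fitted change was 2.45 ± 0.23, or 5.45-fold (adjusted p = 6.45e-05). Mmp8, the neutrophil collagenase, read 2.31, 2.08 and 1.74, with a fitted change of 2.21 ± 0.17. Camp, the precursor of the antimicrobial peptide cathelicidin, read 1.72, 1.88 and 1.43. Ngp, neutrophilic granule protein, read 2.31 and 2.35 on the arrays with 72 h RNA in Cy5 but 0.867 on the turned array, and its fitted change was 1.72 ± 0.14. Fcnb, a ficolin that binds microbial sugars, ran the other way, with 1.88 on the turned array against 1.51 and 1.27. Mmp9, the gelatinase of tertiary granules, read 1.54, 0.98 and 1.32, and Lcn2, the siderophore-binding lipocalin, 1.26, 1.79 and 0.64. Pglyrp1, a protein that binds bacterial wall peptidoglycan, rose by 1.06 ± 0.09 and Padi4, the arginine deiminase that modifies histones in neutrophils, by 1.23 ± 0.11. Chil1, a chitinase-like protein of the same granules that was on no list and was named after its values were seen, rose by 1.21 ± 0.11.

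The 250 bases before the start of 4 of these genes are shown because the genes moved together and transcription factors of the C/EBP family are known to act on granule genes. Sequences and positions are those of RefSeq for GRCm38.p6, and capitals mark each match to TTNNGNAA, letters taken here for C/EBP factors, on either strand. Promoters of a single chromosome and those of another length were left out beforehand. After that 59 of the 78 genes of the lists searched had a sequence.
Ltf, chr9:111019042-111019291, plus strand: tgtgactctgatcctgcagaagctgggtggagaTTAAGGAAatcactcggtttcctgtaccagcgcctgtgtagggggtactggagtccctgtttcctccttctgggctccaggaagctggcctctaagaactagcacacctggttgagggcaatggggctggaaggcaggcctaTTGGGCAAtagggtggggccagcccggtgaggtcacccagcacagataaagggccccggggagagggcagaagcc
Mmp8, chr9:7558179-7558428, plus strand: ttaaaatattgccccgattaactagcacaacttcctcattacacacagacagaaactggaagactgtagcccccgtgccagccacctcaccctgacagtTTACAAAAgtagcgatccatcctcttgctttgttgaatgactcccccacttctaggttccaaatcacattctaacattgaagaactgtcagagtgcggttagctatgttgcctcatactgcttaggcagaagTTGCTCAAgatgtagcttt
Ngp, chr9:110419558-110419807, plus strand: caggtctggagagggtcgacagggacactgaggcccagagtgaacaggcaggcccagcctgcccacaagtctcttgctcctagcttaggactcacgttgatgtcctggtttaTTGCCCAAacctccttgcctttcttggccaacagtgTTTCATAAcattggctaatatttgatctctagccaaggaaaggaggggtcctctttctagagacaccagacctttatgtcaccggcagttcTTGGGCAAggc
Camp, chr9:109849457-109849706, minus strand: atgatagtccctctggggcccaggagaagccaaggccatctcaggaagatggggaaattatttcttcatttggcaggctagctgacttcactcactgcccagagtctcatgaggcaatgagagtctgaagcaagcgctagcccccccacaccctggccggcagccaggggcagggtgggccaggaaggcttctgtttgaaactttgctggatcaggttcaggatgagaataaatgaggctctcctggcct
Matches lay 217 and 75 bases before the start of Ltf, 151 and 19 before that of Mmp8, and 138, 102 and 11 before that of Ngp, counted to the first base of the match. Camp held 0 matches in this window, which says only that these letters are not in it. Of the 20 genes of the list that rose and had a sequence, 12 held a match (60%), against 36.8% of all 32851 windows searched. Among all 22 measured members with a sequence 13 held one (59.1%), with Cd177, which did not pass, among them. Camp, Ngp and Ltf lie on chromosome 9, in that order along it. A match is a description of letters and not a measured binding site.

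The receptor genes Fpr2, Itgam, Itgb2, Ltb4r1 and Cxcr2 are members of the list above and are counted in it. Fpr2, a receptor for formylated bacterial peptides, read 2.30, 1.51 and 0.81, and Itgam, the alpha chain of the Mac-1 integrin, read 1.46, 1.74 and 1.15. The fitted change of Fpr2 was 1.60 ± 0.14 and that of Itgam 1.50 ± 0.10. Itgb2, the partner chain of Itgam, rose by 1.08 ± 0.09. Itgb2l, a relative of that chain, rose by 0.98 ± 0.13. Trem3 (0.85 ± 0.09), a receptor of the TREM family, and the leukotriene B4 receptor gene Ltb4r1 (0.88) rose as well. Cxcr2, the receptor for neutrophil-attracting chemokines, rose by 0.41. Ceacam1, an inhibitory adhesion molecule, read 1.27, 1.28 and 1.91, and its relative Ceacam2 read 1.31, 1.36 and 1.95. Probes of such close relatives may detect each other's transcripts, so these genes are not independent of one another.

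Stefin A genes, which encode inhibitors of cysteine proteases, rose and are counted in the same list, as are Wfdc21, S100a8 and S100a9. Stfa3 read 2.61, 1.92 and 1.10, Stfa2 2.29, 1.35 and 1.65, and Stfa1 2.05, 2.03 and 0.76. These paralogs lie side by side on chromosome 16 and are alike in sequence, so their probes may not separate them. Wfdc21, another small protease inhibitor, read 1.66, 1.74 and 0.57. Of 65 serpins and other protease inhibitors 11 rose and 1 fell (6 and 0 with the replicate block, and 7 rose without replicate 2), the stefins counted here again. S100a8 and S100a9 encode calprotectin, an abundant cytosolic protein pair of neutrophils. S100a8 read 1.63 and 1.31 on the arrays with 72 h RNA in Cy5 and 0.00021 on the turned array, and S100a9 read 1.64, 1.19 and 0.38. Both were called (adjusted p = 0.0026 and 0.0053) and both lost the call with the replicate block (adjusted p = 0.062 and 0.11). Anxa1, the annexin that dampens neutrophil recruitment, read 1.07, 0.88 and 1.07 and rose by 1.15 ± 0.11. Of 25 S100 and annexin genes, 11 rose (44%, against 5.19% of all features) and 0 fell (7 rose with the replicate block).

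Primary granule genes changed less. Of 12 measured 6 rose and 1 fell, with a median of 0.42, and with the replicate block 3 rose and 0 fell. Elane, neutrophil elastase, read 0.61, 0.68 and 1.19, and Prtn3, proteinase 3, read 0.51, 1.22 and 0.87. Ms4a3, a membrane protein of granulocyte progenitors, rose by 0.71 ± 0.10. Lyz2, the lysozyme gene of myeloid cells, read 1.18, 0.94 and 0.018, and its call (adjusted p = 0.0091) was lost with the block (adjusted p = 0.051). Mpo, myeloperoxidase, had a fitted change of 0.09 ± 0.09 and Ctsg, cathepsin G, of 0.05 ± 0.11, and neither passed. Srgn, the proteoglycan that packs granule proteases, fell by 0.54 ± 0.11, a call lost without replicate 2 and without its turned array. Of 15 genes of the NADPH oxidase and phagocyte killing 5 rose and 0 fell (3 and 0 with the block). Among them Lta4h, which makes leukotriene B4, read 0.62, 0.94 and 0.79, and Rac2, the small GTPase of the oxidase, read 0.63, 0.87 and 0.59.

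Monocyte and macrophage genes rose too. Of 37 measured markers 21 rose (56.8%, against 5.19% of all features) and 0 fell, with a median of 0.47. With the replicate block 11 rose. Clec7a, the beta-glucan receptor dectin-1, read 1.78, 1.41 and 1.44. Ctss, the lysosomal protease cathepsin S, read 1.31, 1.12 and 1.64, and its fitted change was 1.49 ± 0.10. Mpeg1, a pore-forming protein of phagocytes, read 1.50, 1.35 and 0.88. Ccr2, the receptor that draws monocytes out of the marrow, rose by 0.91 ± 0.15, and Cd68, a lysosomal glycoprotein of macrophages, by 0.86 ± 0.09. Members that did not pass included Adgre1 (0.08, the F4/80 antigen), Cx3cr1 (-0.09, the fractalkine receptor) and Cd163 (-0.26, the haptoglobin scavenger receptor), which were named after their values were seen. Among 33 Fc, lectin and Toll-like receptors 16 rose (48.5%) and 0 fell (10 and 0 with the block). Clec4a2 read 1.89, 1.28 and 1.14 and Clec4n 1.44, 1.00 and 1.29, both lectin receptors encoded close together on chromosome 6. Tlr2, which senses bacterial lipoproteins, rose by 0.92 ± 0.11. Of 16 genes of the Ms4a family 4 rose and 0 fell (2 with the block and 2 without 0 h line array 1). Ms4a6d rose by 0.62 ± 0.09 as the mean of 2 probes that read 0.18 and 1.06.

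Lysosome and cytoskeleton genes followed in smaller steps. Of 49 lysosome genes 19 rose (38.8%, against 5.19% of all features) and 0 fell, with a median of 0.28. Only 6 rose with the replicate block, 12 without 0 h line array 1 and 7 without replicate 2. Psap, the precursor of the saposins that help degrade sphingolipids, read 1.21, 1.66 and 1.16, and Naaa, an acid amidase, read 1.00, 0.63 and 1.12. Of 47 cytoskeleton and motility genes 16 rose (34%) and 0 fell (7 rose with the block and 8 without replicate 2). Capg, a protein that caps actin filaments, read 0.97, 1.16 and 1.01, Zyx, the focal adhesion protein zyxin, 0.72, 0.91 and 1.11, and Rhob, a small GTPase, 0.93, 1.02 and 0.70. Actb, beta-actin, had a fitted change of -0.09 and did not pass.

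Of 26 mast cell and basophil markers measured 8 fell and 3 rose, against 2.97% of all features that fell, the median was -0.08, and 8 fell with the replicate block as well. The 3 rises became 0 with the block and 1 without any one of 0 h line array 1, 72 h line array 1, replicate 1, replicate 2 or its turned array. Gzmb, granzyme B, read -2.51, -2.82 and -3.12, a fitted change of -2.67 ± 0.12. Cpa3, mast cell carboxypeptidase A3, read -2.50, -2.76 and -2.55, a fitted change of -2.58 ± 0.10. Cpa3 and Gzmb lay below -2 on all 3 arrays. Rab27b, a GTPase of secretory granules, read -1.55, -1.82 and -2.14. Fcer1a, the IgE-binding chain of the high-affinity IgE receptor, read -0.90, -1.19 and -1.89. Gata2, a transcription factor of progenitors and mast cells, read -1.01, -0.92 and -1.22. Mcpt8, a basophil protease, fell by 0.83 ± 0.12 and Cd200r3, a receptor of basophils and mast cells, by 0.88 ± 0.14. Fcer1g, the signalling chain that the IgE receptor shares with Fc gamma receptors, rose by 0.87 ± 0.10, a call lost with the block (adjusted p = 0.074). The other mast cell proteases did not pass, among them Cma1 at -0.15, Mcpt4 at -0.08, Tpsb2 at -0.08 and Tpsab1 at 0.04, and neither did the stem cell factor receptor gene Kit (0.03 ± 0.08). Hdc, which makes histamine, was at 0.06.

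The promoter windows of 3 genes of this group that fell are shown because each holds the letters AGATAA, the core that GATA factors bind, marked in capitals on either strand.
Cpa3, chr3:20242182-20242431, minus strand: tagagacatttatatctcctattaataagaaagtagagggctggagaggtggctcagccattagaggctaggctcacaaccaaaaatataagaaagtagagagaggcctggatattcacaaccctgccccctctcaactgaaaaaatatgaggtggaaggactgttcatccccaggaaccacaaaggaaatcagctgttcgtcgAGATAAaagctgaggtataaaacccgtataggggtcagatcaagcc
Fcer1a, chr1:173227230-173227479, minus strand: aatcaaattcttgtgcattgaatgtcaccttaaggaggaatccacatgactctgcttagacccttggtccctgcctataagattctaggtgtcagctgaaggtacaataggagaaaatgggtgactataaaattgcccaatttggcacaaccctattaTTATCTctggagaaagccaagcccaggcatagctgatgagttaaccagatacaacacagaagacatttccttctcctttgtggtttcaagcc
Cd200r3, chr16:44943428-44943677, plus strand: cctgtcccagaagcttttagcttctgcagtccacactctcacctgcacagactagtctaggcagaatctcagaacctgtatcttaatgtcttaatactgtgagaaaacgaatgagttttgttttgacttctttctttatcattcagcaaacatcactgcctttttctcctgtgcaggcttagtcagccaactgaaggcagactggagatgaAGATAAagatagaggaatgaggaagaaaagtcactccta
The matches begin 46 bases before the start of Cpa3, 92 before that of Fcer1a and 39 before that of Cd200r3. Of 7 genes of the list that fell and had a sequence these 3 held a match. Counted by window, 3 of 8 held one (37.5%), against 9.99% of all windows. Of the windows of members that rose 1 of 3 held one (33.3%), and of those of all measured members 5 of 28 (17.9%). With only 3 windows of members that rose, these shares cannot show whether the letters set the members that fell apart. Gzmb, Gata2, Mcpt8 and Ndst2 held 0. The C/EBP and GATA letters were searched in different lists, so overlaps between both motifs were not counted. TTCNNNGAA, the core bound by STAT factors, was found in 2 of 15 STAT5 target genes that had a sequence, Bcl6 and Socs3, neither of them called. By window it was found in 3 of 21 (14.3%), against 7.02% of all windows.

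Among 20 erythroid and megakaryocyte markers 4 fell (20%, against 2.97% of all features) and 2 rose (3 and 0 with the replicate block, and 0 rose without replicate 1). F2r, the thrombin receptor PAR1, read -2.45, -2.10 and -2.58, and Itga2b, the platelet integrin chain CD41 that early progenitors also carry, read -1.998, -1.39 and -2.45. Hba-a1, an alpha-globin gene, read -1.23, -0.87 and -1.61, and Tal1, a transcription factor of red cell and platelet progenitors, fell by 0.52 ± 0.08. Pf4 (0.12), Klf1 (0.05) and Gata1 (0.03) did not pass. Of 10 eosinophil markers 2 rose (20%, against 5.19% of all features) and 0 fell, namely Siglecf at 0.87 ± 0.09, an inhibitory lectin, and Prg3 at 0.52 ± 0.13, a granule protein, and with the block only Siglecf among them was called. Epx, eosinophil peroxidase, was at -0.31. Of 23 lymphoid markers 1 rose (4.35%, below the 5.19% of all features). This was Cd3d, with 1.16 on replicate 1 and 0.37 and 0.06 on replicate 2. Its call (adjusted p = 0.048) was lost when any of 7 hybridisations or arrays was left out. Of 16 dendritic cell markers 2 rose, Cd83 and Irf8, and 0 with the block. Cd34, a surface protein of stem and progenitor cells that was named after its values were seen, read -1.06, -0.99 and -1.49 and fell by 1.12 ± 0.10.

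**Figure D3:**
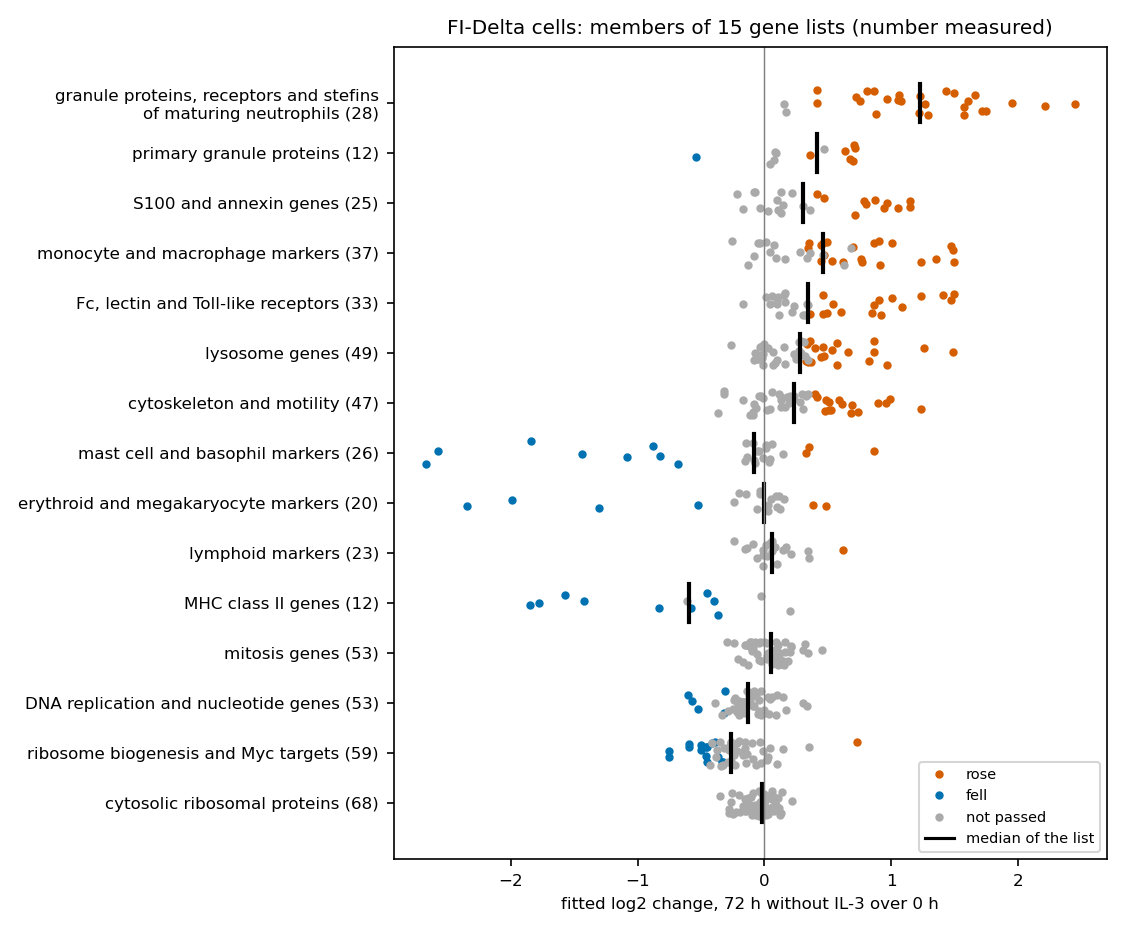
Fitted log2 change of 72 h over 0 h (horizontal axis) for every measured member of 15 gene lists, a point for each gene, coloured by its call, with a bar at the median of the list. Genes of the top list, granule proteins, receptors and stefins of maturing neutrophils, lie almost wholly to the right with a median of 1.23, MHC class II genes to the left with -0.60, and mitosis and cytosolic ribosomal protein genes around 0 with no member called.

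MHC class II genes, whose products present peptides to helper T cells, fell. Of 12 measured 9 fell (75%, against 2.97% of all features) and 0 rose, and the median was -0.60. With the replicate block 7 fell. H2-Aa read -1.66, -1.38 and -2.30, H2-Ea -1.83, -1.41 and -2.28, H2-Eb1 -1.58, -1.59 and -2.29, and H2-Ab1 -1.25, -1.003 and -1.85. All of these chains were lowest on the turned array. H2-Ea is annotated as a transcribed pseudogene in GRCm38.p6, and probes of class II chains may cross-react. Cd74, the invariant chain that guides class II molecules to the lysosome, fell by 0.83 ± 0.11, and H2-Oa, a chain of the peptide-loading regulator, by 0.58 ± 0.08. Ciita, the co-activator that class II genes require, read -0.69, -0.17 and -1.27 and did not pass (adjusted p = 0.050), although it did with the block (adjusted p = 0.025). Among 16 class I and antigen processing genes 1 rose (6.25%, near the 5.19% of all features) and 3 fell (18.75%). With the block 0 were called, and 0 fell without replicate 1 or without replicate 2. B2m, the light chain of class I molecules, read 0.32, 0.41 and 0.94, and the immunoproteasome genes Psmb8 (-0.42 ± 0.09) and Psmb10 (-0.32 ± 0.09) were among those that fell.

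Receptor chains for growth factors split. Of 18 measured genes of that list 5 rose and 2 fell (2 and 1 with the replicate block, and 3 rose without replicate 2), and 1 of those that fell, Il6, is a ligand. Csf2ra, the ligand-binding chain of the GM-CSF receptor, read 1.22, 0.75 and 0.99 and rose by 0.98 ± 0.10. Csf3r, the G-CSF receptor of the neutrophil lineage, read 0.79, 1.08 and 0.87 and rose by 0.75 ± 0.10. Csf2rb2, the mouse beta chain specific for IL-3, read -0.80, -0.41 and -0.69 and fell by 0.62 ± 0.09. It is a close relative of the common beta chain gene, and no feature with the symbol of that gene was measured. Il3ra, which binds IL-3 itself, read 0.0022, -0.022 and -0.33 and did not pass (-0.06 ± 0.09). Il5ra was at -0.10 ± 0.09. Ifngr1 (0.60 ± 0.11), Tgfbr1 (0.51 ± 0.10) and Il6ra (0.36 ± 0.10) rose, and each of these calls was lost with the block. Those that did not pass were Tgfbr2 at 0.28 ± 0.08, Insr at 0.20 ± 0.14, Ifnar2 at 0.15 ± 0.10, Il6st at 0.14 ± 0.08, Flt3 at 0.08 ± 0.09, Igf1r at 0.05 ± 0.13, Kit at 0.03 ± 0.08, Epor at 0.03 ± 0.09 and Ifnar1 at -0.37 ± 0.12. Il6, the ligand, read -0.79, -1.09 and -0.0095.

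**Figure D4:**
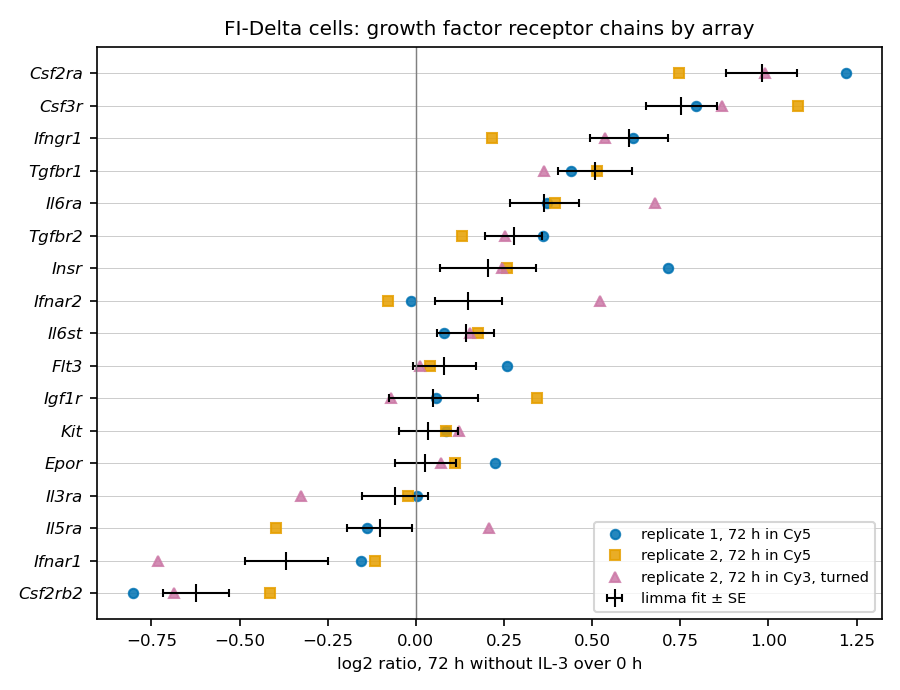
Log2 ratio of 72 h over 0 h (horizontal axis) for 17 growth factor receptor chains, with a symbol for each of the 3 arrays and a black bar for the fitted change ± SE. Csf2ra and Csf3r lie right of 0 on all arrays and Csf2rb2 left of 0, while Il3ra, Kit, Epor and Flt3 lie near 0.

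Downstream of the receptor the changes were small. Of 33 JAK, STAT and other signalling genes 6 rose and 3 fell, and with the replicate block 1 rose and 0 fell. Without replicate 1 these counts were 2 and 0, without replicate 2 they were 2 and 1, and without its turned array 1 fell. Stat5a, the transcription factor that the receptor activates most directly, read -0.64, -0.42 and -0.40, a fall of 0.51 ± 0.09. Jak3 fell by 0.43 ± 0.09 and Jak2, the kinase bound to the beta chain, by 0.31 ± 0.08. Stat6 rose by 0.57 ± 0.10 and Pik3cb, a catalytic subunit of PI3 kinase, by 0.56 ± 0.10. Among 24 STAT5 and cytokine feedback targets 3 rose (12.5%) and 1 fell (4.17%, near the 2.97% of all features). With the block these counts were 1 and 1, and 1 rose without replicate 2. Socs1, a feedback inhibitor of JAK kinases, read -0.90, -0.14 and -1.24. Cish, another STAT5 target of the same family, rose by 0.35 ± 0.08, a call lost with the block (adjusted p = 0.17). Ccnd2, cyclin D2, read 0.77, 0.29 and 0.87 as the mean of 2 probes fitted at 0.27 and 1.12. Pim1, a STAT5 target kinase, was at -0.40 and Bcl2l1 at -0.31, and neither passed.

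Immediate-early factors and ERK feedback genes gave 10 rises (25%, against 5.19% of all features) and 0 falls among 40 (7 and 0 with the block). Egr1, a zinc finger factor induced through ERK, read 1.44, 0.99 and 1.44, and Fos read 1.30, 0.51 and 0.83. Dusp6, the phosphatase that switches ERK off, read 0.77, 0.83 and 0.63, and Phlda1 rose by 1.15 ± 0.10. Myc, at -0.24 ± 0.08, did not pass.

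Of 67 blood transcription factors 9 rose (13.4%, against 5.19% of all features) and 8 fell (11.9%, against 2.97%). These counts were 3 and 4 with the replicate block and 5 and 5 without replicate 1 or without replicate 2. Without 0 h line array 1, 5 fell. Id2, an inhibitor of helix-loop-helix factors, read 1.93, 1.52 and 1.11, the largest rise among them. Tfec, a relative of the mast cell and melanocyte factor MITF, rose by 0.96 ± 0.13, Cebpb, a factor of mature myeloid cells, by 0.68 ± 0.10, and Spi1, the PU.1 gene, by 0.41 ± 0.10. Ikzf2, of the Ikaros family, read -1.78, -1.40 and -1.73, and Sox4, a progenitor factor, -1.44, -0.78 and -1.81. Cebpa, which starts the granulocyte programme in progenitors, read -0.78, -0.62 and -0.89 and fell by 0.86 ± 0.12. Runx1 fell by 0.51 ± 0.11. Gfi1, which neutrophils need, was at 0.20 ± 0.10, and Cebpd at 0.39 ± 0.11, and neither passed.

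No mitosis gene was called. Of 53 measured 0 rose and 0 fell in the limma fit and 0 with the replicate block, and their fitted changes ran from -0.30 (Cks1b) to 0.45 (Fbxo5), with a median of 0.049. Mki67, the proliferation antigen, read 0.25, -0.07 and 0.45, and Cdk1 was at -0.07. At an unadjusted p under 0.05 there were 8 of the 53, against 3999 of all 20243 features. DNA replication and nucleotide genes had a median of -0.13, with 5 of 53 lower and 0 higher, and 0 called with the block. Without replicate 1 or without replicate 2, 1 was lower, and 2 without 0 h line array 1, 72 h line array 2 or Y577F replicate 3. Dut, which removes dUTP, read -0.50, -0.25 and -0.60, and the helicase subunit genes Mcm6 and Mcm3 fell by 0.57 ± 0.12 and 0.53 ± 0.08. Growth arrest genes gave 9 rises and 1 fall among 35 (4 and 1 with the block, and 4 rises without replicate 2). The fall was Bnip3, counted again in the Bcl2 family below. It was lost without 0 h line array 1 or 2, 72 h line array 2, replicate 2 or its turned array. Mxd1, a partner of MAX that opposes MYC and rises in differentiating myeloid cells, read 1.07, 1.27 and 1.40. Gadd45a rose by 0.70 ± 0.13 and the CDK inhibitor gene Cdkn2d by 0.57 ± 0.11. Cdkn1b, the p27 inhibitor, was at -0.30 ± 0.16 and Cdkn1a at -0.12.

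Among 37 genes of the Bcl2 family, caspases and their partners 8 rose and 3 fell (3 and 2 with the block). Without 0 h line array 1 or 72 h line array 2, 4 rose, and 5 without replicate 1, Y577F replicate 3 or the turned array, while 1 fell without replicate 2. Bcl2a1a, Bcl2a1d and Bcl2a1c, near-identical copies that encode the survival protein A1, rose by 1.11 ± 0.09, 1.09 ± 0.10 and 0.98 ± 0.12, and their probes may not separate them. Mcl1, the survival protein that neutrophils depend on, read 0.50, 0.66 and 0.16. Bcl2 itself read -0.81, -0.53 and -0.77 and fell by 0.84 ± 0.13. Bnip3, a mitophagy protein, read -0.44, -1.19 and -1.71. Bcl2l11, which encodes the death-promoting protein BIM, rose by 0.38 ± 0.09, a call lost with the block (adjusted p = 0.18).

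The list of ribosome biogenesis and Myc targets held 15 falls and 1 rise in 59 members, at a median of -0.26. Only 3 fell with the block, 8 without replicate 1, 5 without replicate 2 and 8 without its turned array. Nop16, a nucleolar protein, read -0.83, -0.99 and -0.40, and Apex1, a DNA repair enzyme, -0.73, -0.64 and -0.90. Bop1, a ribosome assembly factor, went against its list with 0.86, 0.74 and 0.81. Of 68 cytosolic ribosomal protein genes 0 were called by limma (4 at an unadjusted p under 0.05), with a median of -0.019. Mitochondrial ribosomal proteins gave 2 rises and 1 fall among 72 (1 and 0 with the block), and the respiratory chain 1 rise among 85, Cox7a2 at 0.34 ± 0.09, a call lost with the block (adjusted p = 0.16). Without replicate 1 or without replicate 2, 0 rose in both lists, and their shares lie below the 5.19% and 2.97% of all features. Among 21 aminoacyl-tRNA synthetases 3 fell, Tars, Iars and Farsb, by 0.41, 0.36 and 0.36, and 0 with the block, without replicate 1, without replicate 2 or without Y577F replicate 3, 1 without 72 h line array 1, and 7 without the other dye swap array.

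Serine synthesis enzymes fell, as Psat1 read -0.82, -0.59 and -1.19 and Phgdh -0.79, -0.32 and -0.71. In their list of 27 ATF4, serine and asparagine genes 4 fell (14.8%) and 2 rose (7.41%, near the 5.19% of all features). With the block these counts were 3 and 2. Asns (-0.13) and Atf4 (-0.02) did not pass. Of 36 sterol and fatty acid synthesis genes 5 fell and 0 rose, with the block or without replicate 2 1 fell, and without 0 h line array 1, replicate 1 or the turned array 3 fell. Those 5 were on the fatty acid side of the list. Scd1, a desaturase, read -1.01, -0.67 and -1.26, and Fasn, fatty acid synthase, -0.65, -0.35 and -0.57. Among 23 amino acid transporters 5 rose and 4 fell (3 and 1 with the block, and 3 rose without replicate 1, replicate 2, 0 h line array 1, 72 h line array 1 or Y577F replicate 3), with the cystine transporter Slc7a11 up by 1.00 ± 0.15 and Slc7a8 down to -0.67 ± 0.09. In 27 genes of glycolysis and hexose uptake 2 rose (7.41%, near the 5.19% of all features), Pgd (0.83 ± 0.14) and Taldo1 (0.51 ± 0.12), both of the pentose phosphate pathway that feeds the oxidase with NADPH. Taldo1 lost its call with the block (adjusted p = 0.088), and 1 gene rose without replicate 1, replicate 2 or 0 h line array 1. Chaperones gave 9 falls (11.5%) and 2 rises (2.56%, below the 5.19% of all features) among 78, with Hsph1 at -0.62 ± 0.09. With the block these counts were 1 and 1, and 5 fell without replicate 1 or without replicate 2. Of 47 proteasome subunits 2 fell (4.26%, near the 2.97% of all features), the immunoproteasome genes named above, and 0 with the block, without replicate 1 or without replicate 2.

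Iron genes included several of the largest changes. Of 38 measured 7 rose and 1 fell (5 and 1 with the block). Slc40a1, the iron exporter ferroportin, read 2.01, 1.48 and 1.47 and rose by 1.70 ± 0.10. The ferritin chain genes Fth1 and Ftl1 were at 0.67 and 0.41. Trf, transferrin, read -1.24, -1.15 and -1.11 as the mean of 4 probes fitted between -1.28 and -0.48. Among 37 aldo-keto reductase and redox genes 6 rose and 3 fell (3 and 2 with the block, 3 rose without replicate 2, and 5 fell without the array of replicate 2 with 72 h RNA in Cy5). Akr1c13 read -1.53, -1.64 and -2.17 and Akr1c12 -1.63, -1.73 and -1.57, neighbouring enzymes on chromosome 13 that are alike in sequence. Mgst1, a membrane glutathione transferase, rose by 0.86 ± 0.10.

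Of 36 chemokines and their receptors 6 rose (16.7%, against 5.19% of all features) and 0 fell (4 with the block and 3 without replicate 1). Ccl3, a macrophage chemokine, read 1.32 on replicate 1 but -0.16 and 0.62 on replicate 2. Among 35 interleukins and their receptors 5 rose and 4 fell, and 0 with the block. Without replicate 1 these counts were 1 and 2, without replicate 2 they were 0 and 2, without its turned array 1 and 2, and 1 and 3 rose without 0 h line array 1 and 72 h line array 1. Il1b, interleukin 1 beta, read 2.35, 1.22 and 1.76, with a wide standard error (1.39 ± 0.31). Il1rn, which blocks the IL-1 receptor, rose by 0.56 ± 0.10, and Il18r1 fell by 0.73 ± 0.11. In the TNF superfamily 8 of 35 rose (22.9%) and 1 fell (5 and 1 with the block, and 5 rose without replicate 1). Tnfsf11, the ligand RANKL, read -1.31, -1.29 and -1.95, and the TNF receptor genes Tnfrsf1a and Tnfrsf1b rose by 0.97 ± 0.11 and 0.79 ± 0.08. Of 42 integrins and adhesion genes 10 rose and 3 fell (8 and 1 with the block, and 1 fell without replicate 2). Cldn1, a tight junction protein, read 1.70, 1.63 and 1.71, the closest agreement between arrays among the 15 largest rises. Of 63 Rab GTPases and vesicle effectors 8 rose (12.7%) and 3 fell (4.76%, near the 2.97% of all features). With the block these counts were 2 and 3, and 5 rose without replicate 1 or without replicate 2. Sytl3, an effector of Rab27 proteins, read -1.08, -1.28 and -1.51. Among 43 interferon-stimulated genes 6 rose and 4 fell (5 and 1 with the block), and 1 fell without replicate 2 and 2 without replicate 1, 0 h line array 1, 72 h line array 2 or Y577F replicate 3. Of those that rose, 4 were Schlafen genes. Slfn1 read 1.76, 1.46 and 1.08, Slfn4 1.28, 0.71 and 1.18, Slfn3 0.77, 1.00 and 0.83, and Slfn2 0.67, 0.72 and 0.90. Ifitm1 fell by 0.92 ± 0.10, while Isg15 (0.18), Ifit1 (0.01) and Rsad2 (-0.03) did not pass.

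Several of the largest changes lay outside these groups. Tmtc2, a transmembrane protein of the endoplasmic reticulum, read -2.59, -1.76 and -3.41, the largest fall of all (-2.75 ± 0.12, 6.75-fold). Fam20a, a kinase-like secretory protein, read -2.63, -1.17 and -2.07, and Spns2, the sphingosine phosphate exporter, -1.68, -1.05 and -2.36. These genes varied more between arrays than Cpa3 did, and were still below 0 on each. The non-coding RNA gene 1700054A03Rik read 2.12, 1.73 and 1.80, and Capn3, a calpain protease, 2.04, 1.43 and 1.50. The gene 4932438H23Rik read -1.26, -1.82 and -1.62.

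Most of the largest changes differed from those of Y577F cells over the same 72 h. The difference between the lines was called in 1871 features (9.24%), and in 24 of these 30 genes, but both changes come from one fit that includes the direct comparisons of the lines. The 30 genes were picked by their change in FI-Delta cells, 1 side of each difference, so the count of 24 is not separate support. With the replicate block the difference was called in 440 features, and from the direct time arrays of both lines alone in 210. The secondary and tertiary granule list had a median of 0.051 in Y577F cells, with 9 rising and 4 falling, and 21 members had a higher change in FI-Delta cells and 4 a lower one. Ltf changed by 0.24 ± 0.22 in Y577F cells, a difference of 2.21 ± 0.26 (adjusted p = 0.00034). Fcnb fell in Y577F cells by 0.45, which gave a difference of 2.10 ± 0.10. Fpr2 rose more in Y577F cells (2.37), a difference of -0.77 ± 0.16. Monocyte and macrophage markers had a median of 1.14 in Y577F cells, and 22 of 37 had a lower change in FI-Delta cells and 0 a higher one. Clec7a rose by 3.00 and Ctss by 3.14 in Y577F cells. Cpa3 and Gzmb fell in both lines, by 0.77 and 0.74 in Y577F cells, with differences of -1.80 ± 0.12 and -1.93 ± 0.14. H2-Aa rose by 0.58 in Y577F cells, a difference of -2.35 ± 0.12. Of 53 mitosis genes 43 fell in Y577F cells, with a median of -0.46, and 37 had a higher change in FI-Delta cells. Id2, Slfn1, Tmtc2, Fam20a, Rab27b and Spns2 did not pass the test of the difference, with estimates from -0.39 ± 0.13 for Tmtc2 to 0.50 ± 0.17 for Fam20a, which does not show that they changed alike.

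**Figure D5:**
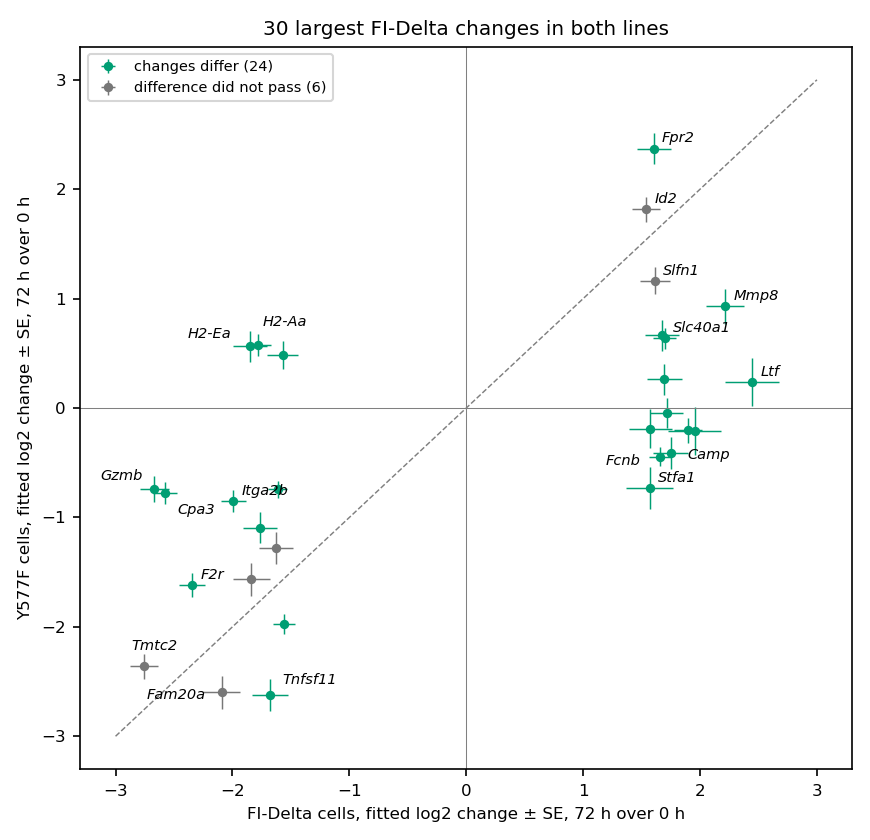
Fitted log2 change of 72 h over 0 h ± SE in FI-Delta cells (horizontal axis) and in Y577F cells (vertical axis) for the 30 largest FI-Delta changes, green where the difference was called, with a dashed line of equal change. Most granule genes lie far below the line near 0 for Y577F cells, H2-Aa and H2-Ea lie above 0 for Y577F cells only, and Tmtc2, Fam20a and Id2 lie near the line.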

How the data were processed

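Total RNA of FDB1 cells was labelled indirectly with Cy5 and Cy3 and hybridised in pairs to two-colour arrays, per the labels' protocols. The authors deposited 1 normalised log2 ratio of the channels per spot, and the submitters' processing notes name limma, without version. The sources used here do not give the log base, direction, background correction or normalisation. Base 2 and Cy5 over Cy3 were assumed, as limma writes them, and if the ratios run the other way, every rise is a fall. Signal intensities were not analysed here. Precision is limited by how few arrays there are.

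The table holds 23040 spots, of which 1243 are controls and were dropped. A single symbol was given for 16651 of the 21797 remaining probes, several for 137 and none for 5009. Probes of one symbol were averaged (1050 genes), giving 20243 features, 15097 with a symbol. The fit used limma 3.58.1 in R 4.3.3 on 9 hybridisations (the FI-Delta dye swap averaged), with a term for dye and 3 for differences among the 4 RNA groups, 5 residual and 6.34 prior degrees of freedom. Tests were two-sided, with Benjamini-Hochberg adjustment over all features. The script was tested on simulated data with independent noise on each array, which does not cover shared extracts or dye effects. The dye term was called in 146 features. Arrays share RNA extracts but were treated as independent. The replicate block gives each extract its own term and has no dye term, which leaves 2 residual degrees of freedom. For it cultures 1 and 2 were read as FI-Delta and 3 and 4 as Y577F, in title order. This was done since on arrays with Y577F RNA in Cy5 the labels give these numbers to opposite lines. Each direct array pairs RNA of one culture number at both times.

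The genes shown, the 47 lists and the tests were chosen with earlier results of these data known. Named genes are the 15 largest rises and 15 largest falls among called single-symbol features with one sign on all 3 arrays, 6 markers, up to 4 called members of each list by size (the 2 largest where none was called), and every measured growth factor receptor chain, 173 in all. Other genes were named after their values were seen. Motifs were searched in the 250 bases before each start, in RefSeq promoters of GRCm38.p6. Promoters of a single chromosome and those of another length were left out, so shares of all windows are shares of those searched. The 20 alternatives were the replicate block, no dye term, fewer arrays, weights, robust moderation, centring, scaling and each array left out.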

Additional observations from a re-analysis of the deposited data

Results flagged for a closer look

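In 24 of the 30 genes with the largest changes the change over 72 h in FI-Delta cells differed from that in Y577F cells, by the contrast of both changes in the limma fit at an adjusted p under 0.05. Values are the log2 change in FI-Delta cells minus that in Y577F cells. Among genes that rose in FI-Delta cells the difference was 2.21 for Ltf, 1.28 for Mmp8, 2.17 for Stfa3, 1.76 for Stfa2, 2.30 for Stfa1, 2.16 for Camp, 1.76 for Ngp, 2.10 for Fcnb and 2.10 for 1700054A03Rik. It was 1.06 for Slc40a1, 1.43 for Cldn1 and 1.01 for Capn3. Fpr2 stood apart from the other rises with -0.77, a smaller rise than in Y577F cells.

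Among genes that fell in FI-Delta cells the class II genes had the largest differences, -2.41 for H2-Ea, -2.35 for H2-Aa and -2.05 for H2-Eb1, and they rose in Y577F cells. Gzmb differed by -1.93, Cpa3 by -1.80, Itga2b by -1.14, Ikzf2 by -0.87, F2r by -0.72 and Akr1c13 by -0.67, each a deeper fall than in Y577F cells. Tnfsf11, with 0.94, and 4932438H23Rik, with 0.42, fell less than in Y577F cells. The genes were picked by their change in FI-Delta cells, which is one side of each of these differences.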

How the results depend on the processing

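The 30 largest changes were called in the same direction under all 20 alternatives. Of 173 named genes 156 were called, 109 with the replicate block and 129 from the FI-Delta time arrays alone, 100 under every alternative, and 0 reversed. Counts moved more. Called features numbered 1652, against 544 with the replicate block (374 higher, 170 lower), 656 from the direct time arrays of both lines (439, 217), 912 from the FI-Delta time arrays (602, 310) and 3786 with array quality weights (2108, 1678). With both dye swap arrays entered separately, an alternative chosen after seeing the data, 947 fell. Leaving out a hybridisation or dye swap array gave 781 to 1953 called features, 527 to 1167 that rose and 254 to 786 that fell. Fewest were called without FI-Delta replicate 2 (781) and replicate 1 (887), and falls also numbered 381 without 0 h line array 1 and 398 without the turned array of replicate 2. The difference between lines was called in 1871 features, in 440 with the replicate block, in 210 from the direct time arrays, and in 911 to 1861 with a hybridisation left out (911 without 72 h line array 2, 951 without 0 h line array 1, 1247 without FI-Delta replicate 2). Some of these alternatives had fewer arrays or residual degrees of freedom, and the causes of the moved counts were not tested. The random block for the dye swap was not run, since limma gives no correlation from a single such pair.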

Other observations

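A set of features was high on replicate 1 alone. By a rule chosen after the values were seen, 67 features lay above 1 on the replicate 1 array while the mean of replicate 2 lay within 0.5 of 0, and 19 lay below -1 in the same way. Of the 67, 8 were called. Rtraf, a factor of tRNA ligation and transcription, read 4.89 on replicate 1 and 0.15 and -1.03 on replicate 2, the widest gap between the replicates of any feature, and did not pass (adjusted p = 0.39). Of the 67 features 22 were also above 1 on Y577F replicate 4, where 338 of all 20243 features were. That array, like replicate 1, had its 72 h RNA in Cy5. Y577F replicate 3, with its 72 h RNA in Cy3, was not counted in this way, and a cause of the overlap was not tested. Agxt read 2.03 on replicate 1, 0.22 and -0.63 on replicate 2 and 1.41 on Y577F replicate 4, and Shd read 1.91, 0.37, -0.10 and 1.22. Lyz1, Aars and Cebpg, members of lists given above, belong to this set, with 1.42, 1.65 and 1.55 on replicate 1, and none of them passed.

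Some features turned sign between the dye swap arrays of replicate 2, of which a pair of transcription factors is given, chosen after their values were seen. Sox8, of the SOX family, read -1.02 with the 72 h RNA in Cy5 and 1.35 with it in Cy3, and Arntl2, a clock factor, -1.01 and 1.33. Neither passed.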
